A study of Trachemys scripta with 4 samples.

Results

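The intermediate filament genes of axons, glia and mesenchyme were followed in peripheral nerves of the turtle *Trachemys scripta* in embryos of stage 19 and of the later stage 21, called st.19 and st.21. The members were chosen by gene symbol, and all 9 were present among the 15289 genes of the deposited table. NEFL, NEFM, NEFH, INA and PRPH form the neuronal set of 5 genes. VIM, NES, GFAP and SYNM form the glial and mesenchymal set of 4 genes. Polyadenylated RNA was isolated from limb plexus tissue, brachial and sacral. The embryos were untreated and grew in incubated eggs of females caught outdoors, whose laying was induced with oxytocin, and the study compared the stages to place the start of myelination. There was 1 sample per stage (N = 1 in the study), which the table holds as 2 columns, replicate 1 and replicate 2. A piece of plexus holds axons, glia, connective tissue and vessels, and its axons come from cell bodies in the spinal cord and in ganglia.

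Intermediate filaments are rope-like polymers that give cells mechanical strength. In axons the neurofilament light, medium and heavy chains (NEFL, NEFM and NEFH) assemble with alpha-internexin (INA) and peripherin (PRPH), fill the axon shaft and set its calibre, and in mammals NEFH comes late, as axons mature. In Schwann cells and their precursors, vimentin (VIM) and nestin (NES) are the main filament proteins, and the glial fibrillary acidic protein (GFAP) marks mammalian Schwann cells that do not myelinate. VIM is also the filament of fibroblasts and endothelium, and NES and synemin (SYNM) occur in developing muscle. Transcripts of the axonal filaments are made in neuronal cell bodies.

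The values are TPM, in which the reads of a gene are divided by its length and scaled to 1000000 per column. They step in whole reads. At st.19 these came to 4353821 and 4241655 reads on genes for replicates 1 and 2, and at st.21 to 2229177 and 2129599. Between replicates 1 and 2 the chi-square per gene, over those with 5 to 500 reads, was 0.433 at st.19 and 0.323 at st.21, and libraries sampled independently would give 1. Above 500 reads, without the rRNA gene, it was 1.56 over 1932 genes at st.19 and 1.72 over 669 genes at st.21. On average the replicates thus differed by more than sampling noise there. NEFL, NEFM, PRPH, VIM, NES and, at st.19, NEFH belong to that class. Of these only NEFL (6.27 at st.19 and 5.49 at st.21) and PRPH (15.3 at st.19) were themselves above 1. Given the N of each stage and the genes with fewer reads, which differed by less than sampling noise, both replicates were treated as 1 sample, no test between the stages was possible, and no p-value is given. Differences are st.21 minus st.19 on the log2 scale, averaged over columns. Confidence intervals (95%, exact binomial) use the reads of the replicate 1 columns and cover counting error only. The short rRNA gene LOC117869916 took 18.9% and 44.2% of all TPM at st.19 but 0.145% and 0.317% at st.21. On this scale that lowers every other gene in both st.19 columns, and in replicate 2 the most. The differences between the replicate 1 columns and their intervals carry this shift as well. When TPM was rescaled to a total of protein-coding genes (the protein-coding total), each gene's difference dropped by 0.53, and the median difference of all genes went from 0.06 to −0.46. Within-column ratios of genes do not depend on this scaling.

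Among the neuronal filaments, NEFL was the most abundant at both stages, followed by PRPH and NEFM. NEFL, on chromosome 2 from 149883977 to 149890705 (CAS_Tse_1.0), had 1187 and 863 TPM at st.19 and 1282 and 1365 TPM at st.21. Both st.21 columns lay above both st.19 columns. The difference was 0.39, and between the replicate 1 columns it was 0.11 (interval 0.03 to 0.19). Per 1000000 reads on genes NEFL had 939.6 and 964 reads at st.19 and 956 and 1027 at st.21. The sign of its difference turned with the protein-coding total, to −0.14.

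NEFM, the medium chain, is the neighbour of NEFL on chromosome 2, from 149902483 to 149908121, with 11777 nt between the gene spans. It had 716 and 499 TPM at st.19 and 542 and 549 TPM at st.21, so the st.21 columns lay inside the st.19 range. Its difference was −0.13, and between the replicate 1 columns it was −0.40 (interval −0.49 to −0.32). The sign of the NEFM difference was the same under each scaling tried. The difference turned to 0.13 when st.19 replicate 1 was left out. The st.19 level then rests on replicate 2, where the rRNA gene took 44.2% of all TPM. Scaled to the reads on genes of each column, as for NEFL, NEFM had 974.8 and 959.5 at st.19. At st.21 it had 695.3 and 710.0 on that scale, so both st.21 columns were lower. NEFL and NEFM, which co-assemble in mammalian axons, thus parted in these samples: the NEFL to NEFM ratio of TPM was 1.66 and 1.73 at st.19 and 2.37 and 2.49 at st.21. The log2 change of that ratio was 0.52 (0.51 in replicate 1, interval 0.40 to 0.63).

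NEFH, the heavy chain, on chromosome 15 from 30377077 to 30386899, was the neuronal filament with the largest positive difference. It had 106 and 74.4 TPM at st.19 and 143 and 145 TPM at st.21, without overlap of the columns. The difference was 0.70 (0.44 in replicate 1, interval 0.25 to 0.62), and it stayed positive under every scaling, down to 0.13 without the rRNA gene in the total. The NEFM to NEFH ratio went from 6.76 and 6.71 at st.19 to 3.78 and 3.80 at st.21, a log2 change of −0.83 (−0.84 in replicate 1, interval −1.05 to −0.63). The 3 neurofilament chains therefore shifted in opposite directions relative to each other, with NEFH gaining on NEFL as well (log2 change of the NEFL to NEFH ratio −0.31, and −0.33 in replicate 1, interval −0.53 to −0.12).

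PRPH encodes peripherin, the filament of neurons that project into the periphery, and lies on chromosome 16 from 12844114 to 12852228. It had 1080.1 and 693 TPM at st.19 and 1111 and 1113 TPM at st.21, a difference of 0.36 that turned to −0.16 with the protein-coding total. Between the replicate 1 columns the difference was 0.04, with an interval of −0.02 to 0.10 that included 0. The st.19 columns themselves differed in PRPH by more than sampling noise, with 6819 and 6017 reads and a chi-square of 15.3. The 2 st.21 columns agreed within sampling noise for PRPH, with 3386 and 3265 reads and a chi-square of 0.147. NEFL was the other member whose columns differed beyond counting noise, with a chi-square of 6.27 at st.19 and 5.49 at st.21, while the remaining 7 members lay between 0.0276 and 0.667 at both stages.

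INA, an early neurofilament partner in mammalian neurons, lies on chromosome 7 from 122393257 to 122405458 and was the least abundant of the neuronal set. It had 66.3 and 46.2 TPM at st.19 and 57.9 and 55.6 TPM at st.21, so the st.21 columns again lay inside the st.19 range. The difference was 0.04, of no fixed sign: it was −0.49 with the protein-coding total, and the interval between the replicate 1 columns ran from −0.47 to 0.08.

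**Figure D1:**
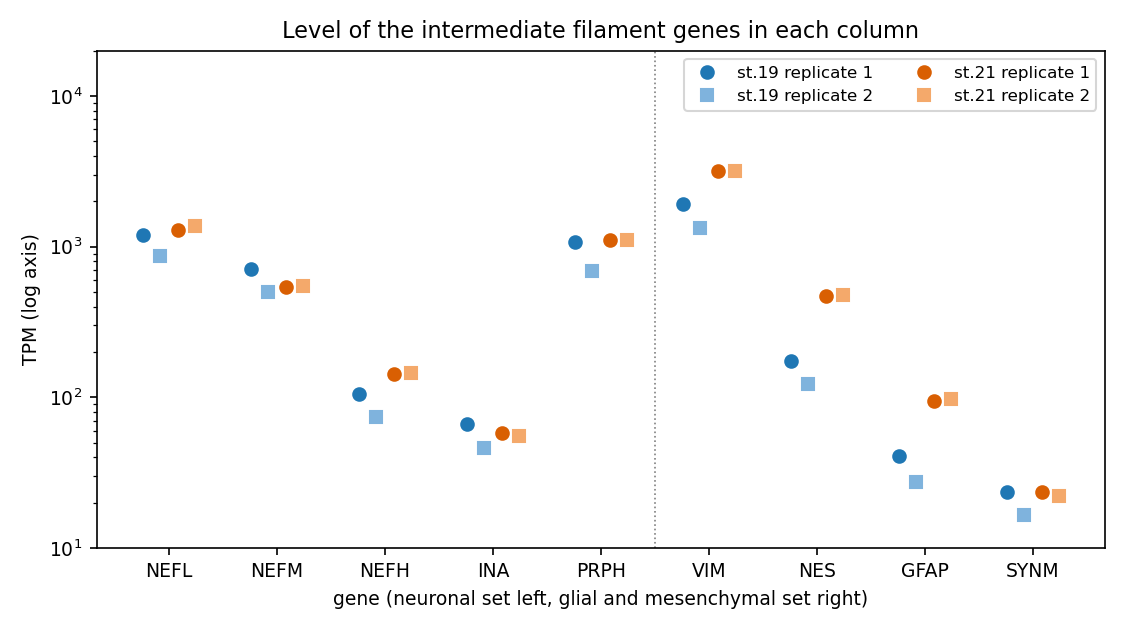
TPM (log axis) of the 9 intermediate filament genes in each of the 4 columns, with circles for replicate 1, squares for replicate 2, blue for st.19 and orange for st.21. NES and GFAP show the widest gap between the stages, and the st.21 points of NEFM and INA fall between their st.19 points.

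The glial and mesenchymal filaments stood higher at st.21, except SYNM. VIM, on chromosome 2 from 39051591 to 39062778, was the most abundant member at both stages, ranked 24 among all 15289 genes at st.19 and 22 at st.21. It had 1921 and 1340.1 TPM at st.19 and 3159 and 3167 TPM at st.21, a difference of 0.98 just short of the fold threshold of 1. Between the replicate 1 columns the VIM difference was 0.72 (interval 0.67 to 0.77). With the protein-coding total the VIM difference was 0.45. It was smallest with quantile normalization, at 0.03, where the highest ranks of a column are given the same values.

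NES, the nestin gene, on chromosome 24 from 10239241 to 10260121, had the largest difference of the members. It had 175 and 123 TPM at st.19 and 472 and 478 TPM at st.21, and its rank among all genes went from 678 to 257. The difference of 1.69 is a 3.23-fold higher level (1.43 in replicate 1, interval 1.35 to 1.51), and it was 1.17 with the protein-coding total. GFAP, on chromosome 23 from 654823 to 682709, came next. It had 40.7 and 27.5 TPM at st.19 and 95.1 and 97.4 TPM at st.21, and its rank went from 4282 to 1617. The GFAP difference of 1.52 is a 2.88-fold higher level (1.22 in replicate 1, interval 1.03 to 1.43), and it was 0.9987 with the protein-coding total. The NES to GFAP ratio was 4.31 and 4.48 at st.19 and 4.96 and 4.91 at st.21, and the interval of its log2 change in replicate 1, −0.02 to 0.42, included 0.

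SYNM, which encodes synemin, a large filament protein that links other filaments to adhesion complexes, lies on chromosome 10 from 77174524 to 77198444 and was the lowest of the 9 genes in all 4 columns. It had 23.6 and 16.5 TPM at st.19 and 23.4 and 22.0 TPM at st.21, inside the st.19 range. The difference of 0.20 turned to −0.32 with the protein-coding total, and the interval between the replicate 1 columns, −0.33 to 0.29, included 0.

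**Figure D2:**
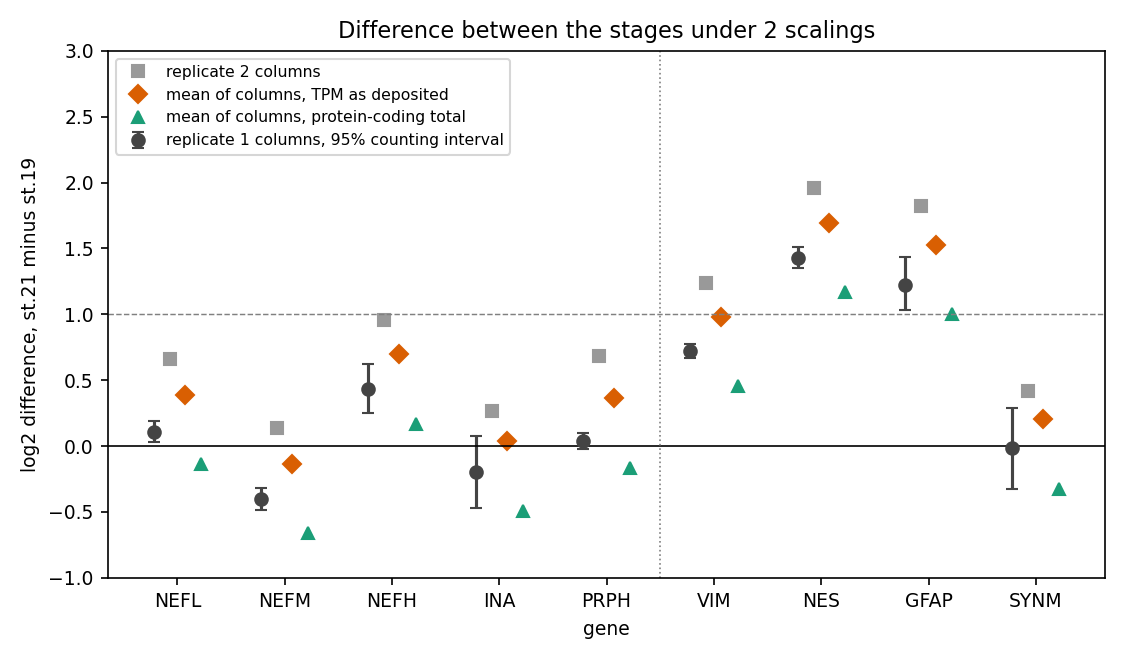
Log2 difference, st.21 minus st.19, of each of the 9 genes between the replicate 1 columns (dark circles, bars are 95% counting intervals), between the replicate 2 columns (grey squares), as the mean with TPM as deposited (orange diamonds) and as the mean with a protein-coding total (green triangles); the dashed line marks 1. NES stays above 1 in all of them, GFAP is at 0.9987 with the protein-coding total, and NEFL, INA, PRPH and SYNM lie above 0 with TPM as deposited and below 0 with the protein-coding total.

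Of the 9 members, 2 (NES and GFAP) were above 1 and 0 were below −1, where 17.3% of the 15100 genes analysed, those reaching 1 TPM in 2 or more columns, were above 1 and 9.68% below −1. All 9 were among these 15100 genes. With the protein-coding total 1 member (NES) was above 1, beside 7.54% of all genes, and 0 were below −1, beside 25.2%. Without st.19 replicate 1 VIM was above 1 as well (1.24), for 3 members in all. Both st.21 columns lay above both st.19 columns in 6 members (NEFL, NEFH, PRPH, VIM, NES and GFAP) and 38.9% of all genes. In 0 members and 31.9% of all genes both lay below, all with TPM as deposited. These counts depended on the scaling. Scaled to the reads on genes of each column, both st.21 columns lay below in NEFM, INA (86.1 and 84.6 against 70.9 and 68.6) and SYNM (62.5 and 61.5 against 58.3 and 55.4). The columns of NEFL and PRPH then overlapped, and NEFH, VIM, NES and GFAP stayed above. On that scale the shares of all genes were not counted, so whether the members differ from other genes there was not tested. With TPM as deposited, the median difference was 0.36 for the neuronal set and 1.25 for the glial and mesenchymal set, beside 0.06 for all genes. The neuronal median turned to −0.16 with the protein-coding total, while the glial and mesenchymal median became 0.73. Relative to the median gene of each column the medians were 0.33 and 1.22.

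The distance between the sets is free of a common scaling factor, though it was −1.26 with quantile normalization. The neuronal median lay 0.89 below the glial and mesenchymal median, at −0.93 between the replicate 1 columns and −0.87 between the replicate 2 columns. In summed TPM of the 9 genes, the neuronal set held 59.4% and 59.1% at st.19 and 45.5% and 46.2% at st.21. VIM alone held 36.1% and 36.4% at st.19 and 45.9% and 45.3% at st.21, and NES went from 3.30% and 3.35% to 6.86% and 6.84%. Of the neuronal members, NEFM had the largest fall in share, from 13.5% and 13.6% to 7.87% and 7.85%. NEFH kept about its share, with 1.99% and 2.02% at st.19 and 2.08% and 2.07% at st.21.

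**Figure D3:**
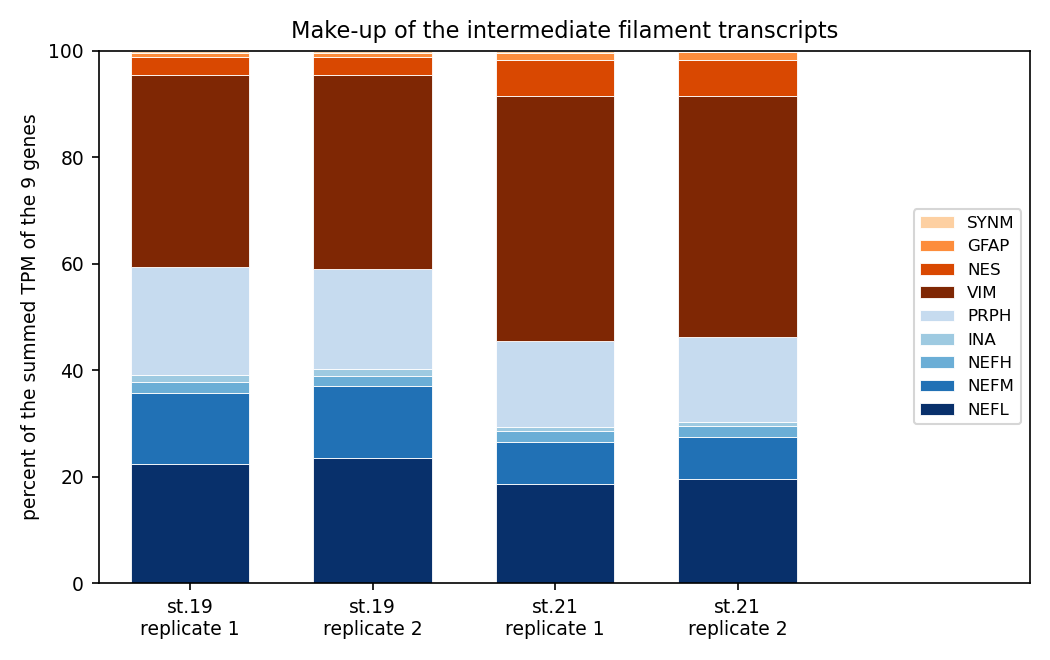
Share (percent) of each gene in the summed TPM of the 9 intermediate filament genes, 1 stacked bar per column, with the neuronal set in blue at the bottom and the glial and mesenchymal set in orange and brown at the top. The blue part ends at 59.4% and 59.1% in the st.19 columns and at 45.5% and 46.2% in the st.21 columns.

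Pair by pair, the ratio of a neuronal to a glial or mesenchymal member was lower at st.21 in 17 of 20 pairs, and in 16 of these pairs the interval between the replicate 1 columns lay below 0. The 20 pairs share the same 9 genes, so they are not independent, and pairs of other genes were not counted. The intervals were not widened for the number of pairs. The largest shift was that of NEFM to NES, from 4.08 and 4.05 at st.19 to 1.15 at st.21 in both columns, a log2 change of −1.83 (−1.83 in replicate 1, interval −1.95 to −1.72). The NEFL to VIM ratio went from 0.618 and 0.644 to 0.406 and 0.431, a log2 change of −0.59 (−0.61 in replicate 1, interval −0.70 to −0.51). The 3 pairs with a higher ratio at st.21 were those of NEFL, NEFH and PRPH to SYNM, and of these NEFH to SYNM had an interval above 0 (0.09 to 0.82). SYNM was lower relative to the other glial and mesenchymal members at st.21, and the NES to SYNM ratio went from 7.43 and 7.48 to 20.2 and 21.7.

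The order of the levels, per length, was VIM, NEFL, PRPH, NEFM, NES, NEFH, INA, GFAP and SYNM at st.19. At st.21 GFAP stood above INA, and the order was otherwise the same. The INA to GFAP ratio was 1.63 and 1.68 at st.19 and 0.609 and 0.571 at st.21. At st.19 the column ranges of NEFL and PRPH overlapped, as did those of PRPH and NEFM, but within each of the 4 columns NEFL was above PRPH and PRPH above NEFM. The other neighbours in either order did not overlap.

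Most other neuronal transcripts were lower at st.21 relative to the neuronal filaments. The sign of the filaments themselves depended on the scaling. Of the 5 neuronal filaments 4 were higher with TPM as deposited and 1 with the protein-coding total, where their median was −0.16. Of 14 neuron markers 13 were in the table and analysed. Their median difference was −1.03, with 1 higher (RBFOX3, the nuclear antigen NeuN, 0.40) where 53.1% of all genes were higher, 12 lower and 7 below −1, beside 9.68% of all genes below −1, and with the protein-coding total, where RBFOX3 turned lower too, the median was −1.55. GAP43, a growth cone protein, had the lowest difference, with 1317 and 887 TPM at st.19 and 372 and 351 TPM at st.21 (−1.58). SYT1, the synaptic vesicle calcium sensor, followed with −1.57, and it overlaps LOC117878094. ISL1, a transcription factor made in sensory and motor neuron cell bodies and named outside the rule after its values were seen, had 267 and 189 TPM at st.19 and 90.7 and 88.9 TPM at st.21. Within the columns, the ratio of NEFL to each of the 13 markers was higher at st.21 for 12, with a median log2 change of 1.41. NEFH was higher relative to all 13, with a median of 1.72 and every interval above 0. NEFM was higher relative to 12, with a median of 0.89, and lower relative to RBFOX3. These gains include the fall of the markers themselves: NEFM had a difference of −0.13, beside a median of 0.06 for all genes. The gain was not particular to the neuronal filaments. VIM, NES and GFAP were higher relative to all 13 markers and SYNM relative to 12, with medians from 1.23 (SYNM) to 2.72 (NES). NEFL relative to TUBB3, the neuronal beta-tubulin, went from 0.822 and 0.856 at st.19 to 1.65 and 1.72 at st.21, a log2 change of 1.01 (1.01 in replicate 1, interval 0.90 to 1.11). PRPH relative to TUBB3 went from 0.748 and 0.688 to 1.43 and 1.40. In such bulk samples, fewer neurons, less RNA per neuron and more RNA from surrounding tissue cannot be told apart. The study states that the small nerves were difficult to dissect and that surrounding tissue could have been included. Of the motor neuron markers, 3 of 4 were in the table, each with at most 32 reads in a column. With TPM as deposited 0 were past the fold threshold, and with the protein-coding total 1 (CHAT, −1.24) was below −1. CHAT, the acetylcholine-synthesizing enzyme, had 23 and 22 reads at st.19 and 5 in each column at st.21.

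Schwann cell markers were set beside the glial filaments. All 10 markers were in the table, with a median difference of 0.82. Of them 8 were higher and 2 above 1, beside 53.1% and 17.3% of all genes. With the protein-coding total the median was 0.29, and 1 marker was above 1, beside 7.54% of all genes. FOXD3, a crest and early glial transcription factor, had a difference of 1.11. S100B and CDH19, a glial calcium-binding protein and a cadherin of Schwann cell precursors, had −0.40 and −0.32. The ratio of VIM to SOX10, the transcription factor of the whole glial lineage, was 8.87 and 9.16 at st.19 and 9.59 and 9.50 at st.21, without a difference beyond counting error (log2 change 0.08, and 0.11 in replicate 1, interval −0.01 to 0.24). NES gained on SOX10, from 0.809 and 0.842 to 1.43 in both st.21 columns (log2 change 0.80, and 0.83 in replicate 1, interval 0.69 to 0.97). GFAP gained on SOX10 too, from 0.188 in both st.19 columns to 0.289 and 0.292 (log2 change 0.63, and 0.63 in replicate 1, interval 0.39 to 0.86). NES and GFAP were each higher relative to 9 of the 10 Schwann cell markers. VIM was higher relative to 8 of them and lower relative to 2, with 4 intervals above 0 and 2 below 0.

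Other tissues also express these filaments, and their markers moved with the stage. Over all genes, 53.1% were higher, 17.3% were above 1 and 9.68% below −1. All 7 skeletal muscle markers analysed were above 1, with a median of 4.95, and their summed TPM was 92.5 and 60.7 at st.19 and 2346 and 2324 at st.21. ACTA1, the skeletal muscle actin, had a difference of 5.85, and TNNC2, fast troponin C, 5.56, though TNNC2 overlaps SNX21 in the annotation. All 8 markers of fibroblasts and perineurium were higher, 4 of them above 1 (7 higher with the protein-coding total), with summed TPM of 6278 and 4271 at st.19 and 28373 and 28051 at st.21. COL3A1, a fibrillar collagen, had a difference of 2.73 and DPT, dermatopontin, 3.31, and DPT overlaps LOC117887270. All 6 endothelial markers were higher and 3 were above 1 (2 with the protein-coding total), led by EGFL7 (1.96) and ESAM (1.85). Their summed TPM was 69.5 and 48.9 at st.19 and 133 and 138 at st.21. NES and GFAP were each lower relative to all 7 muscle markers. Relative to the 8 fibroblast and perineurium markers each was higher for 4 and lower for 4, and relative to the 6 endothelial markers higher for 4 and lower for 2. VIM, NES and SYNM are known from these tissues, and the part that muscle, fibroblasts or endothelium had in their differences was not tested. Of 4 central glial markers analysed, 0 were higher and 2 were below −1, SLC1A3 (−1.88) and SLC1A2 (−1.45), both astrocyte glutamate transporters, SLC1A3 with 7 and SLC1A2 with 10 reads in each st.21 column. FABP7 of the same list, which Schwann cell precursors also express, had 965 and 672 TPM at st.19 and 573 and 579 TPM at st.21, and AQP4, ALDH1L1 and OLIG2 had no row in the table used. Macrophage markers numbered 4, of which 3 were above 1, including CD74 (2.90) and MPEG1 (2.75). Of 5 epidermal markers 1 was analysed, EPCAM, with 7 and 8 reads at st.19 and 0 and 2 at st.21.

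**Figure D4:**
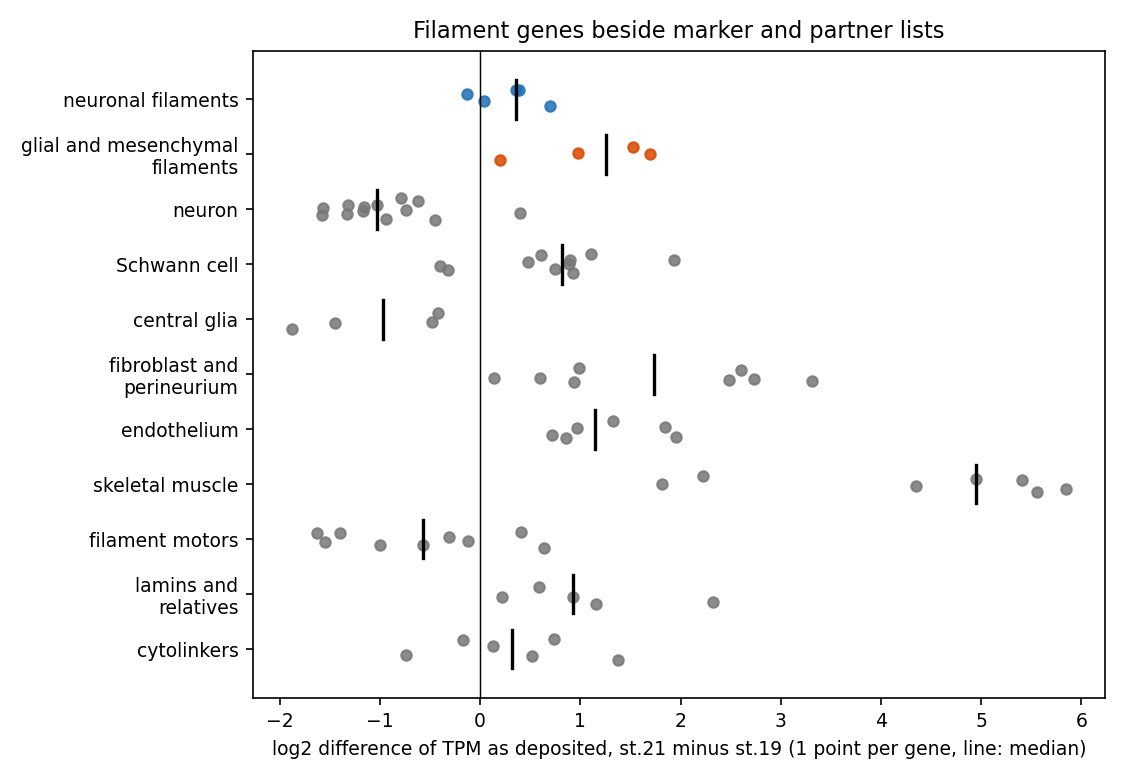
Log2 difference (TPM as deposited, st.21 minus st.19) of single genes, 1 row per list, with a black line at the median of the list. The neuronal filaments (median 0.36) lie to the right of the neuron markers (median −1.03), and the glial and mesenchymal filaments (median 1.25) lie among the Schwann cell, fibroblast and endothelial markers (medians 0.82, 1.74 and 1.15).

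The remaining filament genes were further cytoplasmic ones and the nuclear lamins with their relatives. Of 9 further cytoplasmic filament genes 4 were in the table. DES, BFSP1, BFSP2, KRT23 and KRT24 had no row under these symbols, so their levels are not known. The simple epithelial keratin pair KRT8 and KRT18 was higher, KRT18 from 26 and 25 reads at st.19 to 74 and 62 at st.21 (2.59) and KRT8 from 16 and 14 to 36 and 34 reads (2.33). KRT222, named outside the rule after its values were seen, had 16 and 14 reads at st.19 and 2 in each st.21 column, a difference of −1.16, with an interval of −5.11 to 0.14 between the replicate 1 columns. The nuclear lamins and their relatives numbered 5. All were higher with TPM as deposited, beside 53.1% of all genes, with a median of 0.92. The median was 0.40 with the protein-coding total, where IFFO2 turned lower. LMNA, the lamin A/C gene of differentiated cells, had 38.4 and 21.9 TPM at st.19 and 147 and 143 TPM at st.21 (2.32), and LMNB2 had a difference of 1.16.

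Cytolinkers tie filaments to junctions and to the rest of the cytoskeleton. Of 9 such genes 6 were analysed, with a median of 0.32 that turned to −0.21 with the protein-coding total. PLEC, which encodes plectin, was the 1 gene of the list above 1, beside 17.3% of all genes, and 0 were below −1, beside 9.68%. With the protein-coding total PLEC was at 0.85, 0 genes of the list were above 1 and 1 was below −1. The shares of all genes were then 7.54% and 25.2%. PLEC had 114 and 78.6 TPM at st.19 and 246 and 248 TPM at st.21 (1.38). DST, the dystonin gene whose loss in mice disorganises axonal neurofilaments, had 68.5 and 48.9 TPM at st.19 and 34.7 TPM in both st.21 columns (−0.74), and it overlaps LOC117875210 and LOC117875212. DSP, desmoplakin, had a difference of 0.74 and SPTBN1, a spectrin, −0.17.

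The genes that move, modify and remove filaments were also counted. Over all genes 17.3% were above 1 and 9.68% below −1, and with the protein-coding total 7.54% and 25.2%. Of 10 motor genes 9 were analysed, with a median of −0.57 (−1.09 with the protein-coding total). Of these, 0 were above 1 and 4 below −1 (5 with that total). KLC1, a kinesin light chain, had a difference of −1.63, and KIF5C, a neuronal kinesin heavy chain, −1.55, while DCTN1 and KLC2 had 0.64 and 0.40, and KLC2 turned lower with the protein-coding total. KLC1 overlaps XRCC3. Of 17 kinase and phosphatase genes 11 were analysed, with a median of −0.32 (−0.85 with the protein-coding total), 1 above 1 and 2 below −1. PLK1, a mitotic kinase, had 1.55, PAK1 −1.26 and MAPK8 −1.10, and CDK5R2, an activator of the neurofilament kinase CDK5, 0.90. Of 9 genes of filament turnover and chaperoning, 3 were above 1 and 0 below −1, with a median of 0.86. With the protein-coding total 1 was above 1 and 2 were below −1, with a median of 0.33. The small heat shock proteins led: HSPB1 had 15.9 and 10.1 TPM at st.19 and 126 TPM in both st.21 columns (3.31), and CRYAB had a difference of 1.43. TRIM2, a ubiquitin ligase of NEFL in mice, had −0.96.

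By the level in the 4 columns after median centring, the genes nearest to NEFL among 12063 named protein-coding genes were RPS16 (Euclidean distance 0.15 on the log2 scale) and CFL1 (0.21). The nearest to NEFM were DPYSL3 (0.11), a protein of growing axons, and PFN2 (0.20). The nearest to VIM were YBX1 (0.17) and CYTB (0.37). The distances compare 2 samples and describe level and stage difference together.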

How the data were processed

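RNA-seq of dissected plexus nerves was analysed for st.19 and st.21, with groups and replicate numbers taken from the sample titles. The authors aligned single-end reads with HISAT2 to CAS_Tse_1.0, counted them with featureCounts, filtered on CPM with edgeR (3.42.4) and deposited log2 TPM with an added prior count (2 on average as recovered). The strand setting of the counting is not given in the sources used here. Whole reads were recovered from the deposited log2 values: 1 length per gene made all 4 columns whole (tolerance 1e-05), and 3626 of 3626 lengths listed in the study's supplement came back. Recovery and intervals were tested on simulated data.

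Coordinates and overlaps came from the RefSeq gene table of that assembly (15266 symbols matched, 23 did not); no member overlaps another gene. Named were all members and, per list, the 2 largest rises and falls with at least 20 reads in every column of a stage, and for likeness the 2 nearest genes; the values of 2 genes so picked are not reported here. The LOC rows of the filament list were not searched. The members and lists were chosen with earlier results of these data known. Alternatives were median centring, a protein-coding total, effective library sizes, quantile normalization, log2(TPM + 1), other filters (none, or at least 5 TPM) and leaving out each column. A total without LOC117869916 and the summed reads of a stage per 1000000 were added after seeing the data. Scripts ran in Python 3.11.15 with scipy 1.17.1 and numpy 2.4.6; tables were handled with pandas 2.3.3 and figures drawn with matplotlib 3.10.9.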

Additional observations from a re-analysis of the deposited data

How the results depend on the processing

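No paired analysis was possible because the results come from no test. Median centring, log2(TPM + 1), no filter and at least 5 TPM moved no result beyond the spread between columns.

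With the protein-coding total and, added after seeing the data, with a total without LOC117869916, the neuronal median turned to −0.16 and −0.21, the glial and mesenchymal median moved to 0.73 and 0.68, members above 1 to 1 in both, genes above 1 to 1139 and 1070, and genes below −1 to 3799 and 4093. The differences turned to −0.14 and −0.18 for NEFL, −0.49 and −0.53 for INA, −0.16 and −0.21 for PRPH and −0.32 and −0.37 for SYNM. Both totals leave out the rRNA gene, which lowers each difference by a constant. Quantile normalization gave −0.58 for the neuronal median, 0.67 for the glial and mesenchymal median, −1.26 for their distance, −0.58 for NEFL and PRPH and −0.20 for INA; the cause was not tested. INA was −0.058 with effective library sizes. With the summed reads of a stage, also added after seeing the data, INA was −0.29, SYNM −0.12 and genes below −1 numbered 2837.

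Leaving out each column in turn gave 0.04 to 0.62 for the neuronal median, 0.98 to 1.52 for the glial and mesenchymal median, −0.94 to −0.90 for their distance, 2 to 3 members above 1, 1735 to 3800 genes above 1 and 920 to 2393 below −1. NEFM ranged from −0.39 to 0.13, INA from −0.23 to 0.30 and SYNM from −0.058 to 0.46. Genes above 1 numbered 3800 without st.19 replicate 1 and 1735 without st.19 replicate 2, the columns in which the rRNA gene differed most. With 1 sample per stage, depth bounds counting error only, and animals, dissections and libraries cannot be told apart from stage.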
